A study of Mus musculus with 27 samples.

Results

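The genes described here encode the machinery that loads peptides onto MHC class I molecules, and they are H2-K1, H2-D1, B2m, Tap1, Tap2, Tapbp, Psmb8, Psmb9, Psmb10 and Nlrc5. They were chosen by symbol from a table of 45070 genes, and all 10 were among the 13901 genes tested. The cells were wild type mouse bone marrow-derived macrophages (BMDMs), which are primary macrophages grown from marrow and not a clonal line. Every group, the untreated one included, had first received the vehicle DMSO for 1 h. The 9 groups were then untreated cells, and cells exposed for 0.5, 1, 2 or 4 h to 10 ng/ml of lipopolysaccharide (LPS), a component of bacterial walls, or to the same dose of the cytokine interleukin-4 (IL-4). Each group had 3 replicates, which the labels do not assign to separate mice or cultures, so that the p-values measure the spread between samples and this spread may be technical. What was measured is RNA still attached to chromatin, which is rich in transcripts that are being made, and the study used these courses to find genes regulated by either stimulus.

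MHC class I molecules display short peptides from the inside of a cell to cytotoxic T cells. The peptides are cut by the proteasome, pumped into the endoplasmic reticulum by the TAP transporter, and loaded onto a heavy chain paired with the light chain B2m with the help of tapasin. In most tissues the genes of this route respond to interferons, and the protein NLRC5 acts on their promoters as a transactivator.

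All values are normalised read counts, scaled by the authors on invariant genes and rounded. The totals per sample were 3571492 to 4058199 in the 12 LPS samples, against 2469768 to 2790981 in the other 15. They are sums of scaled values and not sequencing depths, which are unknown. Of 8 macrophage markers, such as Adgre1 and Csf1r, all 8 passed the filter, with summed values of 10027 to 19679 per sample. Single markers moved in both directions after LPS. The mean of Csf1r was 1971 in untreated cells and 456 at LPS 2 h, and that of Adgre1 was 4245 and 6529. None of the T cell, B cell, NK cell or neutrophil markers passed the filter, and 2 of 4 dendritic cell markers and 1 of 3 fibroblast markers did. The summed dendritic cell markers were 47 to 98 at LPS 1 h and 5 to 28 in every other group. The sum at LPS 1 h was mainly Zbtb46, with a mean of 60.7, beside 3.67 for Flt3, 1.33 for Siglech and 0 for Xcr1. The part of dendritic cells or fibroblasts in the results was not tested. In bulk samples like these, a change in the RNA of each cell and a change in the share of cells that make it cannot be told apart.

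LPS changed all 10 genes over its course, and it did so in 2 directions. At 0.5 h the heavy chain genes had already risen about as far as they would go, while both TAP genes and the 3 immunoproteasome genes were below their untreated level. By 2 h every one of the 10 genes was higher than in untreated cells. After IL-4, 3 of the 10 passed the test over its course, beside 40.3% of all genes, and this number ran from 1 to 7 under the alternatives tried. Nlrc5 was lower and Psmb10 higher at IL-4 4 h. In the F test over the LPS course 10 of 10 genes passed, but so did 87.6% of all genes tested. Against untreated cells, 5 of the 10 were higher at 0.5 h, where 19.6% of all genes were called higher. At 1 h 7 were higher, and at 2 h and 4 h all 10, beside 24.8%, 26.9% and 25.9% of all genes. At 0.5 h the other 5 genes were lower, as were 34.4% of all genes. The median log2 fold change of the 10 genes was -0.20, 1.11, 3.41 and 3.31 over the LPS times, in order, and that of all tested genes was -0.24, -0.30, -0.29 and -0.26.

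**Figure D1:**
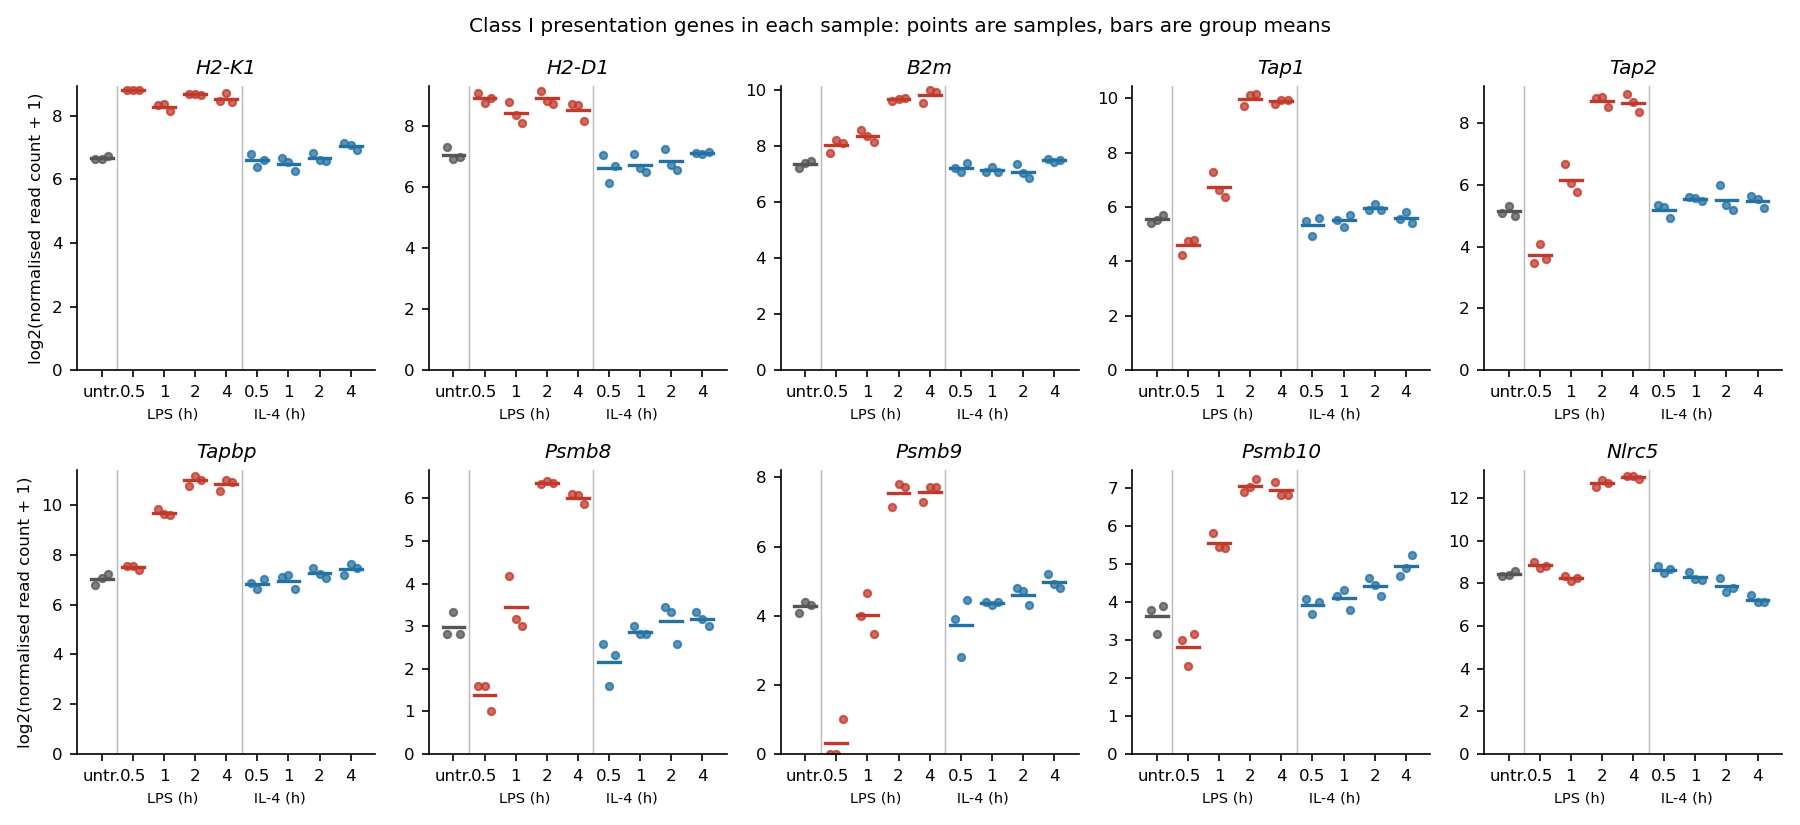
Each panel plots log2(normalised read count + 1) of 1 gene in all 27 samples, with points for samples and bars for the means of the 3 samples of a group, in grey for untreated, red for LPS and blue for IL-4. The H2-K1 and H2-D1 points are high from LPS 0.5 h on, whereas the Tap1, Tap2, Psmb8 and Psmb9 points dip at LPS 0.5 h and climb to their highest level at 2 and 4 h.

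The scale of the LPS samples needs care for the small changes. Rescaling by median-of-ratios factors raised the median over all genes by 0.24 to 0.28 at the LPS times, and rescaling to equal totals moved it by -0.51 to -0.66. Of the genes called at LPS 0.5 h, 36.3% were higher as deposited, 48.7% after median-of-ratios rescaling and 17.7% with equal totals. At 4 h these shares were 40.7%, 49.9% and 22.9%. The rises at 2 and 4 h held in all 10 genes under both rescalings. Relative to the median of all genes, the log2 change at LPS 0.5 h was 0.92 in B2m, 0.71 in Tapbp and 0.65 in Nlrc5. It was -0.55 in Psmb10 and -1.18 in Tap2.

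H2-K1 was at its highest at 0.5 h, the earliest time sampled, and H2-D1 was about as high at 0.5 h as at 2 h. H2-K1 and H2-D1 encode the classical class I heavy chains that hold the peptide. H2-K1 read 99, 98 and 105 in the untreated samples and 446, 445 and 448 at LPS 0.5 h. Its 1 h values were 320, 333 and 286, those at 2 h were 408, 415 and 405, and the 4 h samples gave 350, 417 and 343. All 12 LPS samples lay above all untreated samples, and the 0.5 h samples were the highest of the course. The log2 fold change was 2.14 ± 0.11 (SE) at 0.5 h (limma, adjusted p = 3.03e-10), a 4.43-fold rise, or 2.38 above the median of all genes. From 0.5 to 1 h H2-K1 fell by 0.51 (adjusted p = 0.000903), and from 1 to 2 h it rose again by 0.39 (adjusted p = 0.00726). At 4 h the log2 fold change was 1.86 ± 0.11.

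H2-D1 read 155, 118 and 124 in untreated cells, 534, 429 and 474 at LPS 0.5 h and 434, 324 and 272 at 1 h. The 2 h samples, at 565, 450 and 418, were about as high as those at 0.5 h. The 4 h samples read 415, 412 and 280. Here too no LPS sample overlapped the untreated ones. The log2 fold change was 1.85 ± 0.19 at 0.5 h (adjusted p = 1.32e-06) and 1.46 ± 0.19 at 4 h (adjusted p = 8.11e-06). Over the means of the 9 groups, H2-D1 followed H2-K1 more closely than any other pair of the 10 genes did, with r = 0.993. That figure is a description over 9 groups in the same libraries. Reads that mapped to several places had been removed, so reads from stretches that are the same in both genes may be missing from both values.

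The light chain gene B2m had its highest mean at 4 h, though its step from 2 to 4 h did not pass the threshold. It read 149, 167 and 176 in untreated cells, 216, 300 and 278 at LPS 0.5 h and 379, 331 and 283 at 1 h. At 2 h it read 792, 829 and 853, and the 4 h samples held 750, 1021 and 984. All LPS samples were above the untreated ones, and the main step lay between 1 and 2 h. There the log2 rise was 1.32 ± 0.15 (adjusted p = 3.52e-06). At 4 h B2m was 5.60-fold higher than in untreated cells (log2 2.47 ± 0.15, adjusted p = 1.21e-09). The rise at 0.5 h was smaller, at 0.68 ± 0.15 (adjusted p = 0.00156), and it missed the threshold without replicate 2 (adjusted p = 0.059) and with equal totals (0.17, adjusted p = 0.351). Another gene, Patl2, lies on the other strand across all 5396 bases of B2m. Its value was 121% to 146% of that of B2m in each of the 27 samples, and its log2 fold change at LPS 4 h was 2.41. Whether the same reads were counted for both genes was not tested.

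The heavy chains and the light chain differed in the time and in the size of their rise, and their ratio changed. At LPS 4 h the log2 fold change was 2.47 in B2m and 1.86 in H2-K1. The log2 ratio of H2-K1 to B2m within a sample was -0.70 ± 0.10 (SD, n = 3) in untreated cells and 0.77 ± 0.25 at LPS 0.5 h. It was -1.30 ± 0.21 at LPS 4 h, below every untreated sample. The ratio of H2-K1 to H2-D1 moved less, from -0.38 ± 0.23 in untreated cells to -0.10 ± 0.16 at LPS 0.5 h and 0.02 ± 0.27 at 4 h, and these groups overlapped the untreated one.

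The promoters of the 3 chain genes are shown because these genes differ in the time of their rise. The sequences are RefSeq windows of GRCm38.p6, the build of the table, from 250 bases before to 50 after the annotated start, and 8 of the 10 genes were found there. For H2-K1 the table has 2 windows, and the one shown has the start given in the deposited table. H2-K1 lies at chr17:34000298-34000597 on the minus strand, H2-D1 at chr17:35262844-35263143 on the plus strand and B2m at chr2:122147437-122147736 on the plus strand. Capitals mark a κB-type match (GGGNNTTCC) in the heavy chain genes and a match to the core of an interferon-stimulated response element (GAAANNGAAA) in B2m, both strands having been searched.
H2-K1: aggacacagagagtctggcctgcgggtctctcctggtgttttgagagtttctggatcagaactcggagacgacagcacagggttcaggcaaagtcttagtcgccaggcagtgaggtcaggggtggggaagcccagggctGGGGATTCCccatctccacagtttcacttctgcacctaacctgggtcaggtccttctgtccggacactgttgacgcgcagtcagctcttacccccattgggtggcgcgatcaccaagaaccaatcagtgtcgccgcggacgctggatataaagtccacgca
H2-D1: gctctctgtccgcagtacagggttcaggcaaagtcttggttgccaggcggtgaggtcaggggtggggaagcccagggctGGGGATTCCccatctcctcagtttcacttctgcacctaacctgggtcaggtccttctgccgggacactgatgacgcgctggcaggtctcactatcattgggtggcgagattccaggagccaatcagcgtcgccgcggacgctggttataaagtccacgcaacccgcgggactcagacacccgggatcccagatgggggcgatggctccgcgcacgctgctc
B2m: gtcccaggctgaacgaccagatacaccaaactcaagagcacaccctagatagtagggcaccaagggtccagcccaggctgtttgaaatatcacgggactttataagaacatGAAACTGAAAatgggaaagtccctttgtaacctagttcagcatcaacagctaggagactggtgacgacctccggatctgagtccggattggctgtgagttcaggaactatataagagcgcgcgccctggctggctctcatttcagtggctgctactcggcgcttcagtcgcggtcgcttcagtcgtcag
The κB-type match lies 111 to 103 bases before the annotated start of H2-K1 and 171 to 163 bases before that of H2-D1, and it reads GGGGATTCC in both. These distances depend on the annotated starts. The stretch tataaagtccacgca, found in both windows, lies after the start in H2-K1 and before it in H2-D1. The longest run of bases that both windows share is 47. Of the 8 genes with a window, H2-K1 and H2-D1 alone held GGGNNTTCC in these exact letters, as did 5.82% of all 32851 promoter windows. The GAAANNGAAA match lies 139 to 130 bases before the B2m start and reads GAAACTGAAA, and 3.44% of all windows held this motif. B2m was the 1 gene of the 8 with these exact letters. A GAS motif (TTCNNNGAA) was found in Psmb8, 97 to 89 bases before the start, and in 8.3% of all windows. The CCAAT box (CCAAT) was found in 6 of the 8 genes, H2-K1, H2-D1, B2m, Tap1, Tapbp and Psmb9, and in 37.4% of all windows. The windows of Tap1 and Psmb9 overlap, and their match is the same site, counted for both genes. Only these exact letters and spacings were searched, so near matches were not counted. Examples are tttcacttc in both heavy chain windows and gggaaagtccc in that of B2m. The windows therefore do not show that a gene lacks either kind of element. These matches are letters in a window, no factor was measured, and a link to the time of the rise was not tested.

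Both TAP genes were lower at 0.5 h, and they and tapasin had their highest mean at 2 h. None of these genes passed the threshold in the step from 2 to 4 h. Tap1 and Tap2 encode the paired chains of the peptide transporter, and Tapbp encodes tapasin, which tethers the empty class I molecule to it. Tap1 read 42, 45 and 52 in untreated cells and 18, 26 and 27 at LPS 0.5 h, so that all 3 samples were below the untreated ones. It then rose to 154, 97 and 81 at 1 h. Values of 839, 1107 and 1146 followed at 2 h, and 886, 988 and 983 at 4 h. The log2 fold change was -0.96 ± 0.21 at 0.5 h (adjusted p = 0.00154) and 4.44 ± 0.21 at 2 h (adjusted p = 8.08e-11), the latter a 22.2-fold rise. The early value was 0.71 below the median of all genes.

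Tap2 went the same way. Its values were 33, 39 and 31 in untreated cells and 10, 16 and 11 at LPS 0.5 h. They rose to 101, 66 and 53 at 1 h, the 2 h samples gave 446, 459 and 366, and those of 4 h 484, 405 and 323. No group overlapped the untreated one. At 0.5 h it was 2.78-fold lower (log2 -1.43 ± 0.23, adjusted p = 0.000114) and at 2 h 12.3-fold higher (log2 3.59 ± 0.23, adjusted p = 2.49e-09). With equal totals the rise at 1 h missed the threshold (0.46, adjusted p = 0.0849).

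Tapbp had no dip. It read 109, 132 and 150 in untreated cells, 187, 187 and 165 at LPS 0.5 h and 915, 786 and 782 at 1 h. Its 2 h values were 1750, 2305 and 2037, and those of 4 h 1499, 2069 and 1939. All LPS groups were above the untreated one, and 36.7% of the rise at its peak had been reached at 1 h, against 6.54% for Tap1 and 10.0% for Tap2. The log2 fold change was 2.67 ± 0.15 at 1 h (adjusted p = 7.37e-10) and 3.95 ± 0.15 at 2 h (adjusted p = 5.28e-12). The change at 0.5 h, 0.47 ± 0.15 (adjusted p = 0.0153), was -0.038 with equal totals and missed the threshold without replicate 2 (adjusted p = 0.119). A non-coding gene on the other strand, Gm19412, overlaps 1019 bases of Tapbp and held 15.2% to 29.7% of its value.

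The immunoproteasome genes were also lower at 0.5 h. Psmb8, Psmb9 and Psmb10 encode the catalytic subunits that replace the constitutive ones encoded by Psmb5, Psmb6 and Psmb7 in the immunoproteasome, which cuts peptides suited to class I. Psmb9 read 16, 20 and 19 in untreated cells and 0, 0 and 1 at LPS 0.5 h. All 3 samples were within 3 normalised read counts, so it was at least 6.11-fold lower (adjusted p = 1.26e-07). At 1 h the values were 15, 24 and 10, which overlapped the untreated ones. By 2 h they were 140, 225 and 208, those of 4 h were 155, 209 and 209, and at either time Psmb9 was 10.4-fold higher (adjusted p = 3.81e-07 and 3.61e-07).

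Psmb8 was low throughout. It read 6, 9 and 6 in untreated cells and 2, 2 and 1 at LPS 0.5 h, which is at least 2.33-fold lower (adjusted p = 0.000498). The values of 17, 8 and 7 at 1 h overlapped the untreated ones (adjusted p = 0.199). They reached 80, 83 and 81 at 2 h, an 11.6-fold rise (log2 3.38 ± 0.31, adjusted p = 1.24e-07), and 68, 66 and 57 at 4 h. Genes with so few reads carry more counting error than the chain genes.

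Psmb10 read 13, 8 and 14 in untreated cells and 7, 4 and 8 at LPS 0.5 h, and these groups overlapped. The log2 fold change of -0.80 ± 0.26 (adjusted p = 0.0165) was -0.58 after median-of-ratios rescaling (adjusted p = 0.0746) and missed the threshold without replicate 2 (adjusted p = 0.0539) and without replicate 3 (adjusted p = 0.0868). Unlike Psmb8 and Psmb9, it had passed the threshold upwards at 1 h, with 56, 43 and 42 (log2 1.95 ± 0.26, adjusted p = 9.46e-06). Later values were 118, 131 and 150 at 2 h, then 144, 113 and 113 at 4 h.

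**Figure D2:**
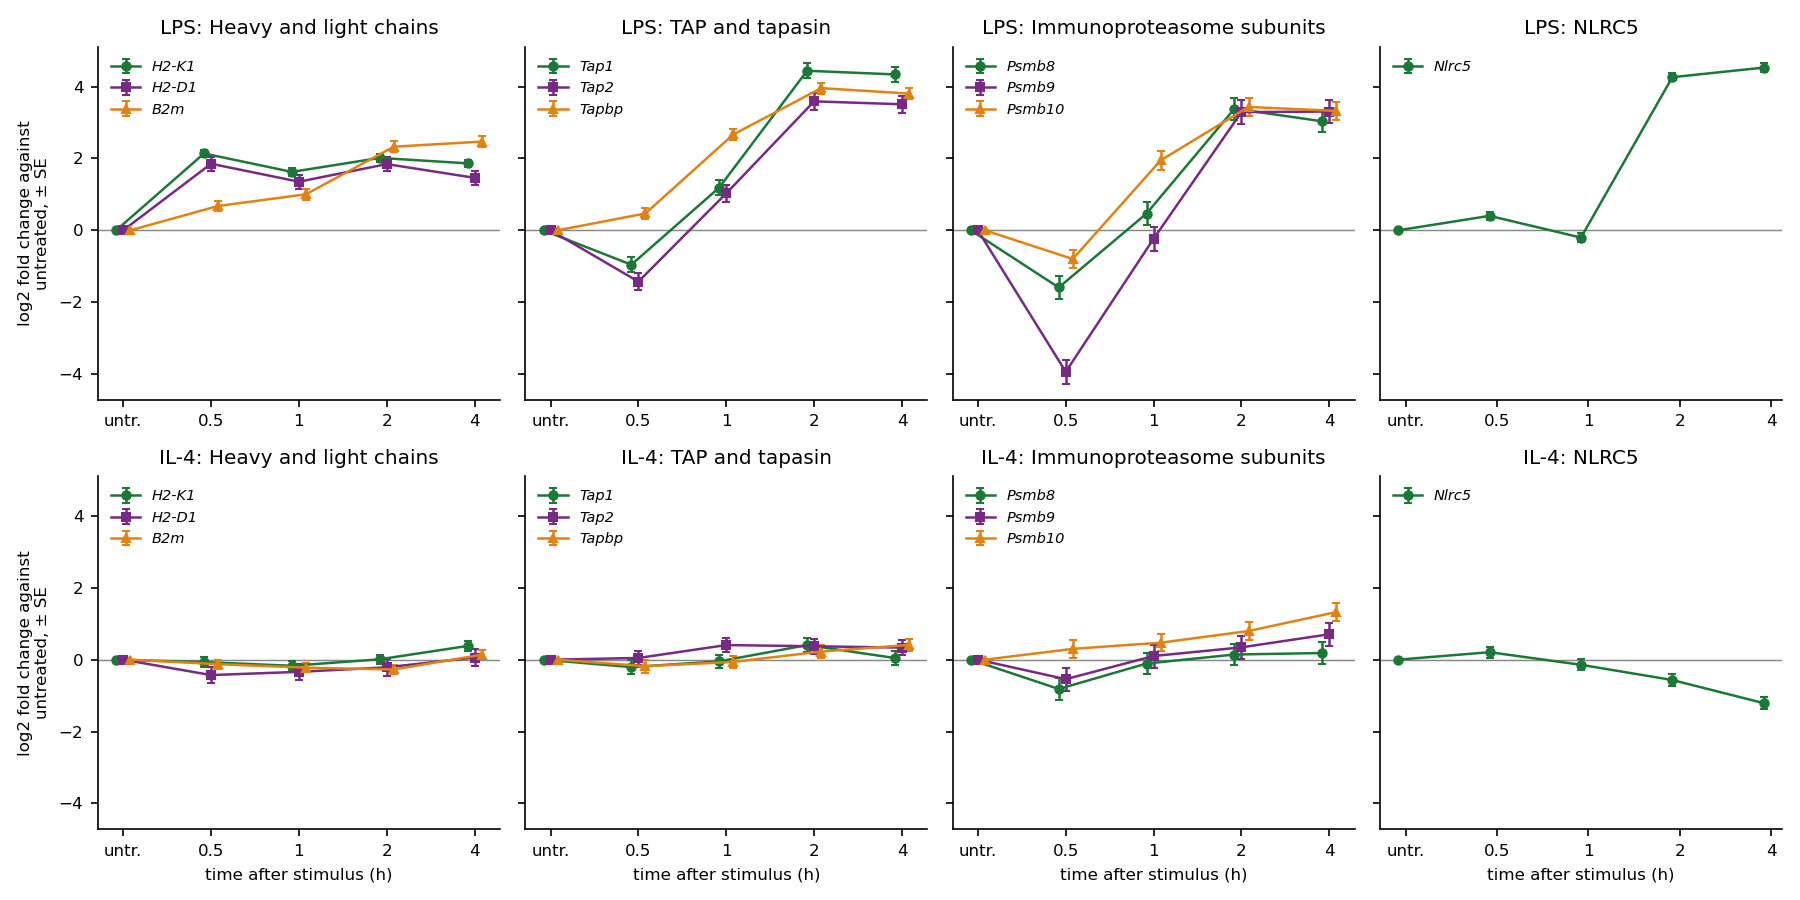
The log2 fold change against untreated (vertical axis, with the SE of the fit) is plotted over time after the stimulus (horizontal axis, in h) for LPS in the upper row and IL-4 in the lower row, with 1 column for each role. Tap1, Tap2, Psmb8, Psmb9 and Psmb10 are below 0 at LPS 0.5 h and all 10 genes are above 0 at 2 and 4 h. The small early rises of Tapbp and Nlrc5 turn to -0.038 and -0.11 with equal totals, and the Psmb8 and Psmb9 points at 0.5 h are fitted values of groups within 3 normalised read counts.

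Psmb9, Tap1, Psmb8 and Tap2 are neighbours on chromosome 17. Psmb9 and Tap1 are transcribed away from each other, with 225 bases between their starts. Psmb8 begins 969 bases after the end of Tap1, and Tap2 begins 3024 bases after the end of Psmb8. The window of Tap1, at chr17:34187306-34187605 on the plus strand, is shown because it holds all the bases between both starts. Capitals mark its CCAAT box, which is also the match counted for Psmb9.
Tap1: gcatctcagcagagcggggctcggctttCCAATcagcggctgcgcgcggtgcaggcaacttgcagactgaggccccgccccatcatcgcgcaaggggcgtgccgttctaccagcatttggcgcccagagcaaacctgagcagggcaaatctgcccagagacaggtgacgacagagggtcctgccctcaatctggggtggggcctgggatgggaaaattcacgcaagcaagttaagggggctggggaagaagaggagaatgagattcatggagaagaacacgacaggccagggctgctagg
It holds neither the κB-type nor the GAAANNGAAA motif in the exact letters searched. Although they share this stretch, both genes did not keep the same proportion. The log2 ratio of Tap1 to Psmb9 was 1.29 ± 0.14 (SD, n = 3) in untreated cells, 4.27 ± 0.47 at LPS 0.5 h, 2.44 ± 0.14 at 2 h and 2.32 ± 0.16 at 4 h. At each of these LPS times it lay above every untreated sample, though at 0.5 h it rests on Psmb9 values of 0 and 1.

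**Figure D3:**
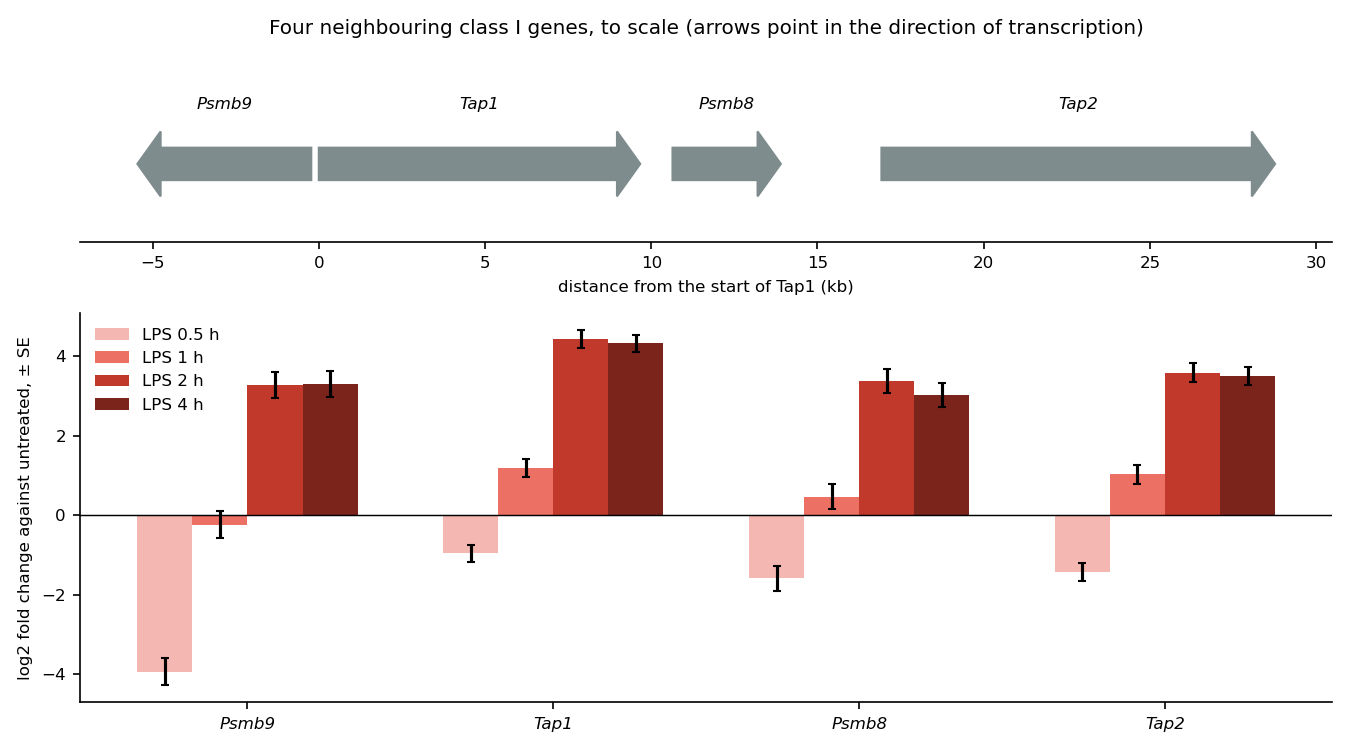
The upper panel draws the spans of Psmb9, Tap1, Psmb8 and Tap2 to scale by distance from the Tap1 start in kb, and the lower panel gives their log2 fold changes at the 4 LPS times against untreated, with the SE of the fit. All 4 genes have a bar below 0 at 0.5 h and bars above 3 at 2 and 4 h, and the bars of Psmb8 and Psmb9 at 0.5 h are fitted values of groups within 3 normalised read counts.

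Within a sample, the immunoproteasome subunits gained on those they replace at the later LPS times. The log2 ratio of Psmb8 to Psmb5 was 0.38 ± 0.51 in untreated cells and 2.88 ± 0.30 at LPS 2 h. That of Psmb9 to Psmb6 was 1.00 ± 0.57 in untreated cells and 3.33 ± 0.10 at LPS 2 h. Its value at LPS 0.5 h is not given, because Psmb9 was within 3 normalised read counts there. For Psmb10 and Psmb7 it went from -4.23 ± 0.44 to -1.56 ± 0.21 at LPS 2 h and -1.28 ± 0.21 at 4 h. None of the 2 h samples overlapped the untreated ones in any of the 3 ratios. The constitutive subunits were not level themselves. Psmb6 was higher at LPS 0.5 h (log2 1.31 ± 0.33, adjusted p = 0.00363) and Psmb7 was higher at 2 h (log2 0.76 ± 0.11, adjusted p = 1.31e-05), while Psmb5 was within 3 normalised read counts in all LPS 0.5 h samples, at least 1.78-fold lower than in untreated cells.

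**Figure D4:**
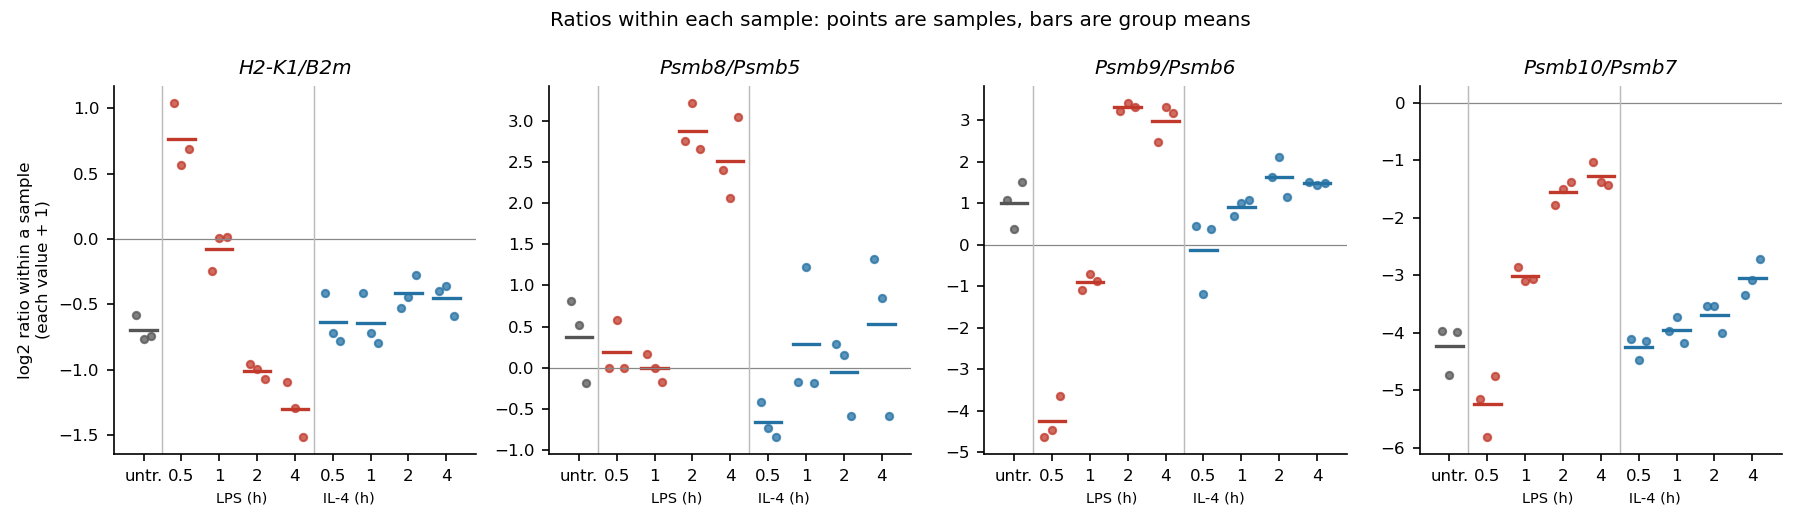
The log2 ratio of 2 genes within a sample, each value + 1, is plotted for every sample (points) with the mean of each group of 3 (bars), in grey for untreated, red for LPS and blue for IL-4. The ratio of H2-K1 to B2m is highest at LPS 0.5 h and lowest at LPS 4 h, and the 3 ratios of immunoproteasome to constitutive subunits are highest at LPS 2 or 4 h, while the LPS 0.5 h points with Psmb8 or Psmb9 rest on values within 3 normalised read counts.

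Nlrc5 rose late, and its log2 fold change at 4 h was the highest of the 10 genes, close to that of Tap1 at 2 h. It encodes the transactivator that is recruited to class I promoters. Its values were 327, 334 and 380 in untreated cells, 505, 423 and 450 at LPS 0.5 h and 323, 274 and 308 at 1 h. The 2 h samples then held 5899, 7363 and 6755, and the 4 h samples 8272, 8282 and 7473. The 2 and 4 h samples were thus far above all others. From 1 to 2 h the log2 rise was 4.46 ± 0.11 (adjusted p = 1.05e-12), and at 4 h Nlrc5 was 23.1-fold higher than in untreated cells (log2 4.53 ± 0.11, adjusted p = 8.05e-14). Its log2 fold change at 0.5 h of 0.40 ± 0.11 (adjusted p = 0.00749) was -0.11 with equal totals and missed the threshold without replicate 2 (adjusted p = 0.0584). At 1 h all 3 samples lay below the untreated ones, at -0.20 ± 0.11, which did not pass (adjusted p = 0.134). It passed as lower with equal totals (-0.78, adjusted p = 1.39e-05), without replicate 1 (-0.29, adjusted p = 0.0158) and with sample weights (-0.27, adjusted p = 0.0131). A non-coding gene on the other strand, Gm51584, covers 14995 of the 54510 bases of Nlrc5 and held 7.91% to 17.1% of its value.

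The steps between neighbouring LPS times were tested as well. From 0.5 to 1 h, 6 of the 10 genes rose, namely Tap1, Tap2, Tapbp, Psmb8, Psmb9 and Psmb10, beside 25.1% of all genes. The log2 rise in this step was 2.15 ± 0.21 in Tap1, 2.45 ± 0.23 in Tap2, 2.20 ± 0.15 in Tapbp and 2.74 ± 0.26 in Psmb10, so the TAP genes and the immunoproteasome genes rose in the same step. The 3 that fell were H2-K1, H2-D1 and Nlrc5, beside 24.6% of all genes. For H2-D1 the groups of this step overlapped (limma, adjusted p = 0.0429). From 1 to 2 h, 9 rose past the threshold, beside 21.5% of all genes. H2-D1 narrowly missed it, at log2 0.49 ± 0.19 (adjusted p = 0.0529). That rise was no smaller than the 0.39 ± 0.11 of H2-K1, which passed. From 2 to 4 h no gene passed the threshold in limma, and none of the 10 had an unadjusted p under 0.05 other than Nlrc5 (log2 0.27 ± 0.11, unadjusted p = 0.0329).

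Relative to gene length, the order of the levels changed with LPS. In untreated cells B2m and H2-D1 led with 30.4 and 30.1 normalised read counts per kb of gene span, and their ranges overlapped. H2-K1 followed with 23.2, Tapbp with 13.3 and Nlrc5 with 6.37. The other 5 genes lay between 4.79 for Tap1 and 2.15 for Psmb8, and each overlapped the next. At LPS 4 h Tapbp led with 187 per kb, with B2m at 170 and Nlrc5 at 147 in ranges that overlapped from 1 to the next. Tap1 at 98.5, H2-K1 at 85.3 and H2-D1 at 83.8 formed a second set of overlapping ranges, and Psmb8 remained the lowest with 19.5. Whether the counts cover introns as well as exons is not stated. The order per span is a description, and it depends on the length used. Per kb of transcript, B2m led in untreated cells with 191, against 76.2 for H2-D1. At LPS 4 h Nlrc5 led by that length with 1153, before B2m with 1070 and Tapbp with 667.5.

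The 3 genes that IL-4 changed over its course were H2-K1, Psmb10 and Nlrc5. With the replicate number as a block, 5 passed, with H2-D1 (adjusted p = 0.0425) and Psmb9 (adjusted p = 0.0345) added. Nlrc5 went down. Its values were 445, 357 and 403 at 0.5 h and 372, 289 and 287 at 1 h. It fell to 301, 195 and 217 at 2 h, and its 4 h values were 172, 139 and 139, against 327, 334 and 380 in untreated cells. The 2 and 4 h samples were all below the untreated ones. At 4 h it was 2.31-fold lower (log2 -1.21 ± 0.16, adjusted p = 6.94e-05), and this held under each alternative tried. At 2 h the log2 fold change was -0.57 ± 0.16 (adjusted p = 0.0162), and it missed the threshold without replicate 2 (adjusted p = 0.183) or without replicate 3 (adjusted p = 0.263).

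Psmb10 went up. It read 16, 12 and 15 at IL-4 0.5 h and 17, 19 and 13 at 1 h. The 2 h samples gave 24, 21 and 17 and the 4 h samples 25, 29 and 37, against 13, 8 and 14 in untreated cells. No 2 or 4 h sample overlapped the untreated ones. It was 2.60-fold higher at 4 h (log2 1.32 ± 0.24, adjusted p = 0.00114). The change at 2 h (log2 0.80 ± 0.24, adjusted p = 0.026) missed the threshold without any 1 of the replicates, with adjusted p between 0.0545 and 0.276. H2-K1 read 141, 133 and 121 at IL-4 4 h, above all untreated samples, with a log2 fold change of 0.38 ± 0.13 (adjusted p = 0.0477). That call was lost without any 1 of the replicates, with adjusted p between 0.0872 and 0.265.

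At IL-4 2 h 1 gene was thus higher and 1 lower, beside 14.3% and 13.2% of all genes. The numbers at 4 h were 2 higher and 1 lower, beside 13.4% and 12.5%. At 0.5 and 1 h no gene passed in limma, and the number with an unadjusted p under 0.05 was 1 at 0.5 h, which was Psmb8, and 0 at 1 h. From IL-4 0.5 to 4 h, 5 of the 10 rose, beside 14.6% of all genes, and 1 fell, beside 12.7%. Those that rose were H2-K1, Psmb10, Psmb9 (log2 1.25 ± 0.32, adjusted p = 0.0101), Psmb8 (1.00 ± 0.30, adjusted p = 0.0242) and Tapbp (0.59 ± 0.18, adjusted p = 0.0233), and Nlrc5 fell. The rise of Psmb8 was from 5, 2 and 4 at 0.5 h to 9, 8 and 7 at 4 h. Those 4 h values overlapped the untreated ones of 6, 9 and 6. Psmb9 read 36, 29 and 27 at IL-4 4 h, above all untreated samples. Its log2 fold change against them of 0.71 ± 0.32 missed the threshold (adjusted p = 0.129). B2m read 186, 171 and 183 at IL-4 4 h and Tap1 46, 56 and 42, and both overlapped the untreated samples, with log2 fold changes of 0.14 ± 0.12 (adjusted p = 0.482) and 0.05 ± 0.19 (adjusted p = 0.895).

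Set against each other at the same time, LPS and IL-4 differed in most of the genes. In a fit of all 27 samples, 4 genes were higher after LPS than after IL-4 at 0.5 h, H2-K1, H2-D1, B2m and Tapbp, while 5 were lower, Tap1, Tap2, Psmb8, Psmb9 and Psmb10. Of all genes 18% were higher and 35.8% lower there. The call of Psmb8 at 0.5 h rests on few reads (limma, adjusted p = 0.0386). It read 2, 2 and 1 after LPS and 5, 2 and 4 after IL-4, and these groups overlapped. At 1 h 7 genes were higher after LPS, and all 10 were at 2 h and 4 h, beside 24%, 26.4% and 26.1% of all genes. The difference of greatest size was that of Nlrc5 at 4 h, where the log2 difference was 5.74 ± 0.14 (adjusted p = 7e-20). For Psmb10 at 4 h, which both stimuli raised, it was 2.00 ± 0.24 (adjusted p = 1.17e-07). The courses share their 3 untreated samples, so their changes are given side by side and were not correlated.

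The rest of the class I route was followed in lists written from general knowledge. Their counts at LPS 4 h are to be read beside 25.9% of all genes higher and 37.6% lower, and those at IL-4 4 h beside 13.4% and 12.5%. The median log2 fold change at LPS 4 h was -0.26 over all genes. Among 8 genes of peptide loading and trimming, 2 were higher and 0 lower at LPS 4 h, namely Hspa5, an endoplasmic reticulum chaperone, at log2 1.87 ± 0.20 (adjusted p = 7.25e-07), and Erap1, the peptidase that trims class I peptides, at 1.13 ± 0.14 (adjusted p = 3.07e-06). The 2 higher of 8 are close to the share of all genes, and the median of the list was 0.31. With equal totals 2 were higher and 3 lower. Erap1 had first fallen, from a mean of 132 in untreated cells to 48 at LPS 0.5 h (log2 -1.43 ± 0.14, adjusted p = 4.86e-07). At IL-4 4 h 6 of these 8 were higher (all genes, 13.4%) and 0 lower, with Canx, which encodes the chaperone calnexin, at 0.64 ± 0.11 (adjusted p = 0.000569) and Hspa5 at 0.57 ± 0.16 (adjusted p = 0.0163).

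Of 8 genes for the proteasome core and its activators, 6 were higher at LPS 4 h (all genes, 25.9%) and 0 lower, against 4 higher and 1 lower with equal totals, and the median was 1.16. Psme1 and Psme2, which encode the PA28 activator, rose with log2 fold changes of 3.33 ± 0.18 (adjusted p = 2.00e-10) and 3.30 ± 0.14 (adjusted p = 1.40e-11), and Psmb6 rose by 1.30 ± 0.33 (adjusted p = 0.00295). At IL-4 4 h 2 of them were higher (all genes, 13.4%), Psme4, another proteasome activator, at 0.52 ± 0.08 and Pomp, a proteasome assembly factor, at 0.47 ± 0.13.

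Of 15 other class I heavy chains 8 were tested. At LPS 4 h 5 were higher and 3 lower, beside 25.9% and 37.6% of all genes, so the lower ones are at the share of all genes. The median was 2.17. H2-T22, H2-T23 and H2-T24, non-classical heavy chains, rose with log2 fold changes of 4.02 ± 0.32, 3.65 ± 0.38 and 3.59 ± 0.22 (adjusted p = 2.40e-08, 6.10e-07 and 1.26e-09). At LPS 0.5 h these 3 had been lower, at -1.58 ± 0.32, -1.17 ± 0.38 and -1.01 ± 0.22, while H2-K1 and H2-D1 were already higher than in untreated cells. Mr1, which presents vitamin metabolites, was at least 4.44-fold lower at LPS 4 h (adjusted p = 0.000332) and also lower at IL-4 4 h (log2 -1.10 ± 0.29, adjusted p = 0.0118). Hfe, a relative that controls iron uptake, differed in direction, at -3.02 ± 0.65 at LPS 4 h (adjusted p = 0.00084) and 0.97 ± 0.15 at IL-4 4 h (adjusted p = 0.000326).

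Among 16 regulators of class I transcription 15 were tested, and 8 were higher and 2 lower at LPS 4 h, beside 25.9% and 37.6% of all genes, with a median of 0.56. The counts were 12 and 2 when rescaled by median-of-ratios factors and 6 and 3 with equal totals. Irf1, an interferon-regulated transcription factor, was early, with a mean of 67.3 in untreated cells, 969 at LPS 0.5 h, 1526 at 2 h and 562 at 4 h (log2 3.0 ± 0.28 at 4 h, adjusted p = 1.49e-07). Stat2, which carries the interferon signal to DNA, had a mean of 221 in untreated cells and of 120 at LPS 0.5 h, and it reached 3484 at 4 h (log2 3.98 ± 0.19, adjusted p = 4.65e-11). At IL-4 4 h 3 of the 15 were higher and 1 lower, beside 13.4% and 12.5% of all genes, with Irf1 at 0.74 ± 0.18 (adjusted p = 0.00692) and Stat2 at 0.72 ± 0.14 (adjusted p = 0.00157). Of 7 interferon and receptor genes 5 were tested, and 3 were higher and 1 lower at LPS 4 h, with the same shares over all genes and a median of 0.74. Ifnar1 rose by 1.66 ± 0.15 (adjusted p = 8.69e-08) and Ifngr2 by 1.02 ± 0.17 (adjusted p = 6.37e-05), whereas Ifngr1, higher at 0.5 h at 2.25 ± 0.13, was at -1.63 ± 0.13 (adjusted p = 1.55e-08). At IL-4 4 h 2 receptor genes were lower (all genes, 12.5%), Ifnar2 at -0.53 ± 0.09 (adjusted p = 0.000619) and Ifngr1 at -0.53 ± 0.11 (adjusted p = 0.00305).

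Outside these lists, the genes whose group means most resembled the average course of the 10 genes were Tyk2, Ass1, Cnn3, Daxx and Mapkbp1, with r of 0.996, 0.996, 0.994, 0.994 and 0.993 over 9 group means among 11177 genes ranked. Tyk2, a Janus kinase gene, had means of 242 in untreated cells and 915 at LPS 4 h, and Daxx went from 23.7 to 932. Among the 10 genes themselves, r over the same 9 means ran from 0.0926 between H2-D1 and Psmb9 to 0.993 between H2-K1 and H2-D1. These points come from the same libraries and are a description of likeness.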

How the data were processed

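Chromatin-associated RNA was profiled in 27 samples of BMDMs, 3 in each of 9 groups. The authors prepared Smart-seq2 libraries with random primers. Trimmed single-end reads were aligned to mm10 with TopHat2 2.1.1, multi-mapping and blacklisted reads were removed (bedtools 2.29.2), and reads were counted per gene over GRCm38.p6 in R. R 3.6.2 and DESeq2 are also in the submitters' processing notes. Strand use in counting is not given in the sources used here. The deposited values are normalised read counts, which the authors scaled on invariant genes and rounded, and they are therefore handled as a score rather than as raw counts. The other deposited columns used were gene span and transcript length, in bases.

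A gene entered the tests if 3 or more of the 27 samples held a value of 10 or more. Tests used limma 3.58.1 (R 4.3.3) on log2(value + 1), with a trended prior variance. Adjusted p-values follow Benjamini and Hochberg across the 13901 genes tested, and 0.05 was the threshold. On this scale the changes of low genes are understated. Each course was fitted with its 15 samples, and LPS against IL-4 with all 27. The study used an impulse model, which was not run. Where every sample of a group was within 3 normalised read counts, a bound against 3 is given. Read depth is not known: in 3 of the 27 libraries some low whole numbers were taken by no gene, and the steps gave no depth for the others, so that no count test was run. No sample columns of other series were found.

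The members and lists were chosen with earlier results of these data known. All 10 members are named, and from each other list up to 3 genes of greatest log2 fold change at LPS 4 h and up to 2 at IL-4 4 h among those past the threshold. The fit was tested on simulated data. Alternatives were other pseudocounts, filters, scalings, sample weights, fits and left-out replicates. For the replicate numbers, deviations from the group mean were correlated over genes: of 108 same-numbered pairs 106 were over 0.1, every pair of the IL-4 course among them. The lowest same-numbered pair, at 0.0897, was between untreated and LPS 4 h. Of 216 pairs with different numbers 70 were over 0.1, and their median was -0.309. Deviations from a group mean cancel within the group, so positive same-numbered pairs push the other pairs to negative values. That median is therefore not separate evidence of pairing. Replicates 2 and 3 were closer to each other than to replicate 1 in each group, with an SD of their log2 ratio of 0.0878 to 0.172, against 0.32 to 0.466, over genes with a group mean of at least 1000.

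A gene that the naming rule selected among the regulators is not reported here, although the counts of that list include it.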

Additional observations from a re-analysis of the deposited data

Results flagged for a closer look

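The change against untreated cells differed between 0.5 and 4 h in most of the genes, tested as the contrast of both times within each course (limma, adjusted p under 0.05 over all tested genes). After LPS the log2 change at 4 h exceeded that at 0.5 h by 1.79 in B2m, 5.29 in Tap1, 4.93 in Tap2, 3.34 in Tapbp, 4.12 in Psmb10 and 4.12 in Nlrc5. The fitted differences were 4.62 in Psmb8 and 7.24 in Psmb9. Both of these start from groups within 3 normalised read counts, and against that floor the levels at 4 h were at least 21.2-fold and at least 63.7-fold higher. H2-K1 went the other way, at -0.28 (adjusted p = 0.0335), and H2-D1 did not pass. After IL-4 the differences were 0.45 in H2-K1, 0.59 in Tapbp, 1.00 in Psmb8, 1.25 in Psmb9 and 1.02 in Psmb10, and -1.42 in Nlrc5. Tapbp, Psmb8 and Psmb9 were not called against untreated cells at any IL-4 time in the fit as reported. Groups of 3 are too small for a search for single outlying samples.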

How the results depend on the processing

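Of 350 recomputed counts of genes past the threshold, 315 stayed within 1.5 times the main count, 21 were lower and 14 higher. With equal totals, 2 genes were higher at LPS 0.5 h, 2 lower at LPS 1 h, 7 changed over the IL-4 course and 1 was lower at IL-4 0.5 h, and the LPS 0.5 h values of Tapbp (-0.038) and Nlrc5 (-0.11) changed sign, since the LPS samples have the larger totals. With sample weights, 1 was lower at LPS 1 h, 5 changed over the IL-4 course, 1 was lower at IL-4 0.5 h and 2 at IL-4 2 h. With no filter on low values, 1 was higher at IL-4 4 h and 0 lower at IL-4 2 h. With a mean of at least 50, fewer of the 10 genes are tested, and 0 were higher at IL-4 2 h and 1 at IL-4 4 h. With replicates 2 and 3 averaged, 0 were higher and 0 lower at IL-4 2 h and 1 higher at IL-4 4 h, and 1 was higher there with median-of-ratios rescaling or with no mean-variance trend. Leaving out each replicate in turn gave 2 to 5 higher at LPS 0.5 h, 0 to 1 lower at LPS 1 h, 1 to 6 changed over the IL-4 course, 0 to 0 higher and 0 to 2 lower at IL-4 2 h, 1 to 1 higher at IL-4 4 h, 0 to 1 lower at IL-4 0.5 h and 0 to 1 lower at IL-4 1 h. The cause was not tested where none is named.

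With the replicate block, 5 genes changed over the IL-4 course instead of 3, and H2-D1 passed as lower at IL-4 0.5 h (-0.43, adjusted p = 0.05), which makes 1 gene there. No other call of a gene against untreated cells changed under the block, but only 12 of the 27 samples correlated best with their own number in every other group. The values of Psmb8, Psmb9 and Psmb10 in untreated, LPS 0.5 h and IL-4 samples rest on few reads, and the depth behind them is unknown.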
